A study of Mus musculus with 24 samples.

Results

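The effect of degrading BRD2 was examined in embryoid bodies on day 4, from 6 of the 24 RNA-seq libraries of the series: 3 treated with doxycycline alone (Dox 1 to 3) and 3 with doxycycline and indole-3-acetic acid (IAA 1 to 3). The genes described were those with a mean normalised read count of at least 1 over these libraries, 21170 of the 35742 genes in the table. All libraries came from V6.5 mouse embryonic stem cells that carry a BRD2 degron, so that the BRD2 protein can be destroyed on addition of an auxin such as IAA. Both groups were differentiated as embryoid bodies in medium without LIF and received 1 µg/ml doxycycline for 18 h, and the IAA group then received 500 µM IAA for 24 h. The labels do not say when IAA was added during embryoid body culture, whether the line is a single clone, or whether separate cultures gave the 3 libraries of each group. The spread behind the p-values is that between these samples and may be technical. Every IAA library came from the degron line, so an effect of losing BRD2 and an effect of IAA itself cannot be told apart here. The series also holds stem cells kept in 2i medium and embryoid bodies on days 2 and 3, with the same 2 treatments and 3 libraries a group.

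BRD2 is a BET protein, one of a small family whose paired bromodomains bind acetylated lysines on histones and which act at promoters and enhancers of transcribed genes. BET proteins are also known for helping to release paused RNA polymerase II through P-TEFb, the kinase that the 7SK ribonucleoprotein holds inactive. Embryoid bodies are aggregates in which stem cells leave pluripotency and, under Nodal, Wnt and FGF signals, begin to express the genes of the primitive streak, the part of the embryo where mesoderm and definitive endoderm form. T (brachyury), Eomes and Mixl1 are transcription factors that mark this step.

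The day 4 libraries held 7941180 to 8120480 recovered reads in Dox and 9007143 to 10598075 in IAA, so every IAA library was deeper than every Dox library. Depth and treatment therefore go together; thinned to equal totals, the libraries gave 1904 genes past the threshold used below, against 2173 at full depth. Pairs of libraries within a group differed by more than counting noise. The chi-square per degree of freedom was 3.40, 4.90 and 1.92 for IAA 1 and 2, 1 and 3, and 2 and 3, against 1.65 to 2.48 for the Dox pairs and 1.11 to 4.09 for pairs of the other stages. The first principal component (29.5% of the variance) separated the 2 groups. The second (19.8%) ordered IAA 1, IAA 2 and IAA 3 at -34.3, 13.2 and 41.2, and placed Dox 3 at -42.9, beyond Dox 1 (18.7) and Dox 2 (4.27). Among the 11024 genes with a mean of at least 50, 83 varied more than 2-fold among the IAA libraries and 26 among the Dox libraries. IAA 1 had 113 such genes more than 2-fold below the Dox mean, IAA 2 had 66 and IAA 3 had 23. By this count IAA 1 was the farthest from Dox and IAA 3 the nearest.

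The Brd2 transcript (ENSMUSG00000024335, chr17:34112023-34122634, minus strand, mm10) rose with IAA. Its normalised read counts were 3057, 3126 and 2862 in Dox 1 to 3 and 3795, 4463 and 4387 in IAA 1 to 3, and the groups did not overlap (log2 fold change 0.48 ± 0.06, adjusted p = 0.000226, limma). The degron acts on the protein, which was not measured here, so the transcript does not check the depletion. Among other BET genes, Brd3 had 1836, 1722 and 1754 against 1693, 1802 and 1784 (Dox 1 to 3 against IAA 1 to 3, the order used throughout) and a log2 fold change of -0.01 ± 0.05. Brdt, a testis gene, had 29.3, 39.9 and 20.1 against 29.4, 25.7 and 30.5 (-0.01 ± 0.26). Neither passed the test (adjusted p of 0.942 and 0.985, limma).

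Over all tested genes, 2173 of 21170 (10.3%) changed with IAA on day 4 at a Benjamini-Hochberg adjusted p below 0.05 (limma on log2 of the normalised count plus 1). Of these, 993 (4.69%) rose and 1180 (5.57%) fell. Changes of at least 2-fold were more often falls (164 genes) than rises (76 genes). The 2 groups did not overlap for 6025 of all tested genes (28.5%) and for 2133 of the genes that changed. Over all genes the log2 fold change had a median of -0.01. The authors' deposited table calls 66 genes higher and 144 lower, at an adjusted p below 0.05 and more than a 2-fold change, and 184 of these 210 also passed the test here. The count of changed genes rested on single libraries: it was 800 without Dox 1, 809 without IAA 2, 860 without Dox 2 and 1395 without IAA 1, and 1798 to 1964 without Dox 3 or IAA 3.

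**Figure D1:**
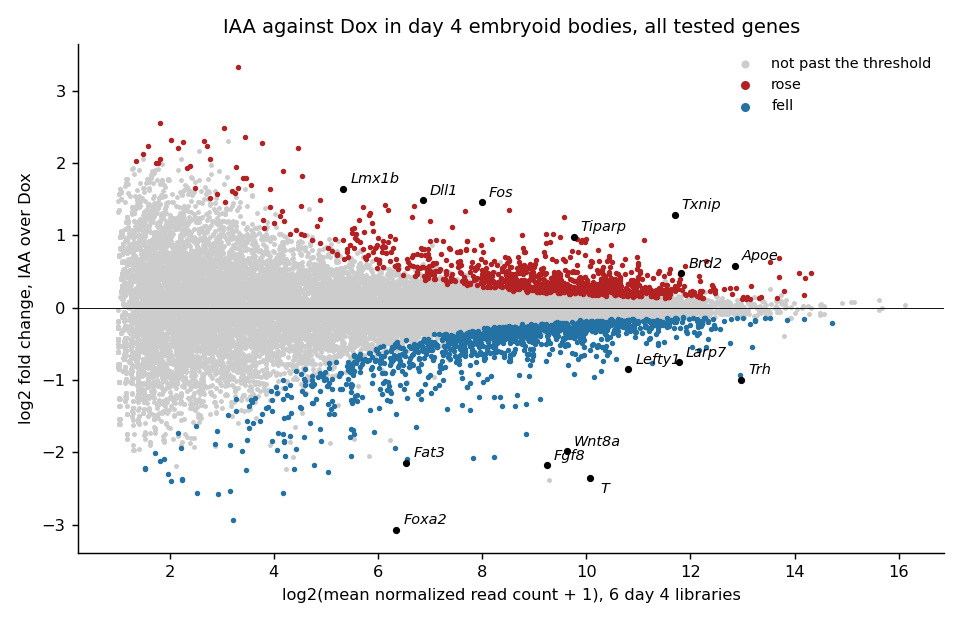
Log2 fold change of IAA over Dox against the mean level of each of the 21170 tested genes, with genes that rose in red (993), genes that fell in blue (1180), the others in grey, and selected genes named in black. Changes of at least 2-fold are mostly falls (164 against 76 rises), and T lies at -2.36 but did not pass the test.

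Genes of the primitive streak fell in part, and of the 34 gene lists described here theirs had the widest spread of medians over the IAA libraries. Of 16 list members tested, 6 fell (Fgf8, Wnt3, Wnt8a, Gsc, Eomes and Nodal) and Fgf4 rose, with a list median log2 fold change of -1.78 against -0.01 over all genes. For this and every later list count, the shares over all tested genes were 5.57% fallen and 4.69% risen. Relative to the Dox mean, the median member stood at -3.20, -1.65 and 0.01 on the log2 scale in IAA 1, 2 and 3, and at 0.32, 0.22 and -0.63 in Dox 1, 2 and 3. Of the 16 members, 13 were lowest in IAA 1 and highest in IAA 3 of the IAA libraries, an order found in 22.3% of all tested genes. In these bulk libraries, fewer cells expressing a gene and less RNA per cell cannot be told apart.

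T (ENSMUSG00000062327, chr17:8434423-8442496, plus strand) shows this order. Its normalised counts were 2091, 1602 and 826 in Dox 1 to 3 and 39.8, 322 and 1556 in IAA 1 to 3. IAA 1 held almost none, IAA 2 was intermediate, and IAA 3 lay within the range of the Dox libraries, of which Dox 3 was the lowest. The log2 fold change of -2.36 ± 0.82 did not pass the test (adjusted p = 0.0847, limma); without IAA 3 it was -3.61 (adjusted p = 0.00282), and without IAA 1 it was -0.99 (0.333). Mixl1, a homeobox factor of the streak, had 125, 121 and 42.8 against 3.79, 23.5 and 126 (adjusted p = 0.162). Evx1, a homeobox factor of its posterior part, had 90.4, 88.5 and 32.7 against 0.948, 17.9 and 105 (adjusted p = 0.192). Lhx1 (56.03, 58.6 and 21.4 against 6.63, 7.83 and 68.8), Sp5 (86.6, 66.04 and 33.99 against 2.84, 17.9 and 64.3) and Cdx2 (17.8, 11.2 and 2.52 against 0, 2.24 and 38.3) were in the same order. For each of these 5 genes and T, IAA 1 was below every Dox library and IAA 3 was above Dox 3, and none passed the test.

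For the members that fell, all 3 IAA libraries were below every Dox library, except for Eomes. Fgf8, the FGF ligand needed for cells to leave the streak, had 1049, 1067 and 681 in Dox 1 to 3 and 75.8, 197 and 540.2 in IAA 1 to 3 (-2.18 ± 0.44, adjusted p = 0.00593, limma). Wnt3, the ligand that starts streak formation, had 181, 141 and 98.2 against 7.58, 44.8 and 83.5 (-2.09 ± 0.55, adjusted p = 0.025). Wnt8a, a Wnt ligand of the early streak, had 1361, 1296 and 891 against 94.8, 367 and 724 (-1.98 ± 0.46, adjusted p = 0.0132). The groups did not overlap for these 3 ligands, and IAA 1 was the lowest in each. Eomes, the T-box factor of the anterior streak, had 862, 718 and 385 against 67.3, 179 and 519 (-1.74 ± 0.48, adjusted p = 0.0316), with IAA 3 above Dox 3. Gsc, a homeobox factor of the organiser, had 35.7, 41.1 and 18.9 against 3.79, 2.24 and 18.04 (-2.23 ± 0.53, adjusted p = 0.015). Without Dox 1, Dox 2 or IAA 2 the list had 1 member that fell, and without IAA 3 it had 11. By DESeq2 it had 1, and the calls of Fgf8, Wnt3, Wnt8a and Eomes were lost. Fgf4 went the other way, at 399, 459 and 550.2 against 1399.7, 879 and 629 (0.98 ± 0.20, adjusted p = 0.00545), highest in IAA 1; it is also a gene of pluripotent cells.

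**Figure D2:**
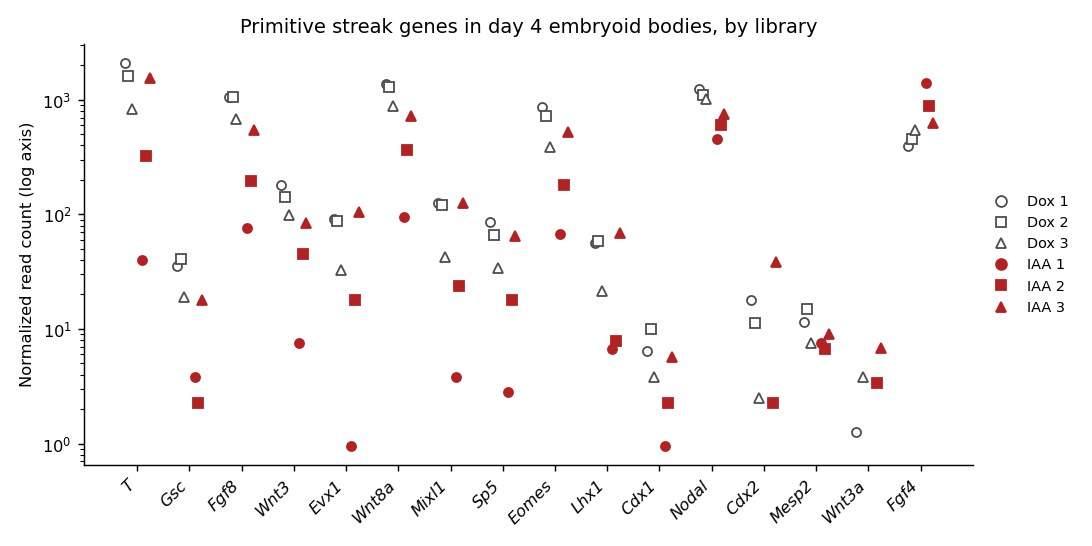
Normalised read counts (log axis) of the 16 tested primitive streak genes in each day 4 library, ordered by log2 fold change, with open grey symbols for Dox and filled red symbols for IAA; counts of 0 (Wnt3a in Dox 2 and IAA 1, Cdx2 in IAA 1) are not drawn. For 13 of the 16 genes the circle of IAA 1 is the lowest and the triangle of IAA 3 the highest red symbol, with T at 39.8 in IAA 1 and 1556 in IAA 3; Fgf4 is highest in IAA 1.

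Foxa2, the forkhead factor of anterior streak and definitive endoderm (ENSMUSG00000037025, chr2:148042877-148046969, minus strand), had the largest of the 10 falls listed further on. Its counts were 152, 167 and 85.6 in Dox 1 to 3 and 1.90, 21.3 and 57.5 in IAA 1 to 3, with a log2 fold change of -3.07 ± 0.71, adjusted p = 0.0125 (limma). Every IAA library was below every Dox library, as the rule for those 10 falls required. IAA 1 was again near 0 and IAA 3 near Dox 3. The call was lost without Dox 1, Dox 2 or IAA 2 (adjusted p of 0.0634 to 0.103, limma). It was also lost by DESeq2. Of the 11 definitive endoderm genes tested, 3 fell (Foxa2, Gsc and Trh) and Cldn6 rose, with a median of -0.41. The falls were 1 by DESeq2, and 1 without Dox 1, Dox 2 or IAA 2. Trh, which encodes thyrotropin-releasing hormone, was highly expressed and had 11089.9, 11074 and 9884 against 4144, 5582 and 6630.2 (-0.99 ± 0.11, adjusted p = 0.000134). Sox17, a defining gene of endoderm, had at most 2.52 normalised counts in any Dox library and 0 in the IAA libraries and was below the filter, and Cxcr4 had 6.37 to 8.81 counts in Dox and 6.71 to 8.53 in IAA. These 2 defining markers of endoderm were thus low in both groups.

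Some Wnt ligand and target genes fell too. Of 14 genes for Wnt ligands and their secretion, 5 fell and none rose (median -0.56): Wnt3, Wnt8a, Wnt5b, Wnt11 and Porcn. Wnt3 and Wnt8a also belong to the streak list. Wnt5b, a ligand of the non-canonical branch, had 131, 115 and 101 against 21.8, 43.6 and 72.2 (-1.46 ± 0.30, adjusted p = 0.00617, limma). Wnt11, another such ligand, had 57.3, 38.6 and 32.7 against 6.63, 10.1 and 27.1 (-1.68 ± 0.40, adjusted p = 0.0145). Porcn, the acyltransferase that Wnt proteins need to be secreted, had 298, 356 and 306 against 184, 237 and 281 (-0.47 ± 0.13, adjusted p = 0.0308). In this list no gene fell without Dox 1 or Dox 2, 1 did without IAA 2, and 3 did without IAA 1 or by DESeq2. Among 16 Wnt feedback and target genes, 3 fell (Axin2, Sp8 and Ccnd1) and Rnf43 rose. Axin2, a scaffold of the β-catenin destruction complex and a standard Wnt target, had 699, 613 and 495 against 253, 339 and 479 (-0.79 ± 0.17, adjusted p = 0.00885). It was lowest in IAA 1, and IAA 3 was just below Dox 3. Rnf43, a ligase that removes Wnt receptors from the cell surface, had 29.3, 53.6 and 39.03 against 83.4, 117 and 111 (1.36 ± 0.21, adjusted p = 0.00118, limma). Each IAA library was above every Dox library, as the rule for the 10 largest rises listed further on required. In the feedback list the falls were 0 without Dox 1 or Dox 2, and 1 without IAA 1, without IAA 2 or by DESeq2. The Axin2 and Sp8 calls were lost by DESeq2, and that of Axin2 also without IAA 1 or IAA 2.

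By the range over the 3 IAA libraries, the 8 genes named were Fst, T, Mixl1, Apln, Eomes, Wnt8a, Fgf8 and Sall3. Fst, the activin antagonist follistatin, had 1271, 896 and 489.7 in Dox 1 to 3 and 18.95, 243 and 811 in IAA 1 to 3. Apln, the ligand of the apelin receptor, had 104, 77.3 and 36.5 against 14.2, 44.8 and 125, and Sall3, a zinc finger factor, had 194, 92.2 and 73.02 against 22.7, 50.3 and 129. All 8 were lowest in IAA 1 and highest in IAA 3. Fst, Apln and Sall3 did not pass the test (adjusted p of 0.092, 0.55 and 0.176, limma), and in each of them IAA 3 was above Dox 3.

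In 9 lists of later lineages, their Hox and retinoic acid genes included, 16 of 139 genes tested passed the test (11.5%), near the 10.3% of all genes. Of 20 nascent mesoderm genes tested, Lefty2 fell and Dll1 and Foxc2 rose. Mesp1, which marks the first cardiac and cranial mesoderm, had 5.09, 7.48 and 2.52 against 0, 1.12 and 15.8, and Kdr, the VEGF receptor of haemangioblasts, had 16.6, 13.7 and 17.6 against 7.58, 11.2 and 20.3, both without a call (adjusted p of 0.621 and 0.597). None of 14 cardiac progenitor genes passed the test. Of 16 blood and endothelial genes Pecam1 alone did, and it rose (36.9, 49.8 and 57.9 against 109, 87.3 and 57.5, 0.77 ± 0.23, adjusted p = 0.0432, limma). Pecam1 is also expressed by pluripotent cells, and its call was lost without Dox 1, Dox 2, IAA 1 or IAA 2. Tal1, the factor that sets up blood formation, had 15.3, 14.95 and 21.4 against 10.4, 7.83 and 15.8 (adjusted p = 0.321). None of 22 tested Hox genes passed. Of 21 neuroectoderm genes Pax6 rose (115, 106 and 131 against 299, 198 and 148, 0.82 ± 0.19, adjusted p = 0.0128) and Dcx, at under 9 counts in every library, fell. The Pax6 call was lost without Dox 1, Dox 2, IAA 1 or IAA 2, and the Dcx call whichever of the 6 libraries was left out. Sox1 had 38.2, 39.9 and 57.9 against 106, 46.99 and 40.6 (adjusted p = 0.461), high in IAA 1 only. Of 11 neural crest and surface ectoderm genes Krt18 and Tfap2c rose and Foxd3 fell. Of 17 retinoic acid genes 2 rose and 1 fell. Of 10 trophoblast genes Tfap2c, the same gene as in the neural crest and surface ectoderm list, rose. Eomes, already counted in the streak list, fell. Of these calls, the retinoic acid rises were 1 whichever library was left out, and both trophoblast calls were lost without Dox 1, IAA 1 or IAA 2. Of 16 primitive and visceral endoderm genes 1 rose and 2 fell (1 without Dox 1, Dox 2, IAA 1, IAA 2 or IAA 3), and its defining markers were close to absent: Afp and Ttr had at most 1.12 counts in any library and Hnf4a 0 in all 6.

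Part of the Nodal pathway fell, its ligand and antagonists included, and for the falls described here no IAA library reached the Dox range. Nodal signals through activin receptors, with Tdgf1 (Cripto) as its co-receptor and Lefty1 and Lefty2 as secreted antagonists that the pathway itself induces. Of 20 members tested, 8 fell (among them Nodal, Lefty1, Lefty2, Tdgf1, Gdf3, Smad7 and Pcsk6) and 2 rose (Gdf1 and Acvr1b), and the falls stayed between 6 and 9 when any 1 library was left out. The list median was -0.05, close to that of all genes. Lefty2 had 472, 516 and 448 in Dox 1 to 3 and 151, 185 and 232 in IAA 1 to 3 (-1.35 ± 0.12, adjusted p = 3.24e-05, limma). Lefty1 had 2032, 2279 and 2586 against 1129, 1395 and 1308 (-0.85 ± 0.08, adjusted p = 5.21e-05). For both antagonists the highest IAA library was well below the lowest Dox library. Nodal itself had 1240.3, 1113 and 1012 against 459, 604 and 759 (-0.91 ± 0.13, adjusted p = 0.00067), and Tdgf1 had 10766, 10818 and 9349 against 3825, 5659 and 7272 (-0.93 ± 0.15, adjusted p = 0.00137). Both of these were lowest in IAA 1 and highest in IAA 3, with no overlap with Dox. Smad7, an inhibitory SMAD, had 485, 459 and 410.4 against 219.9, 296 and 306 (-0.73 ± 0.11, adjusted p = 0.00109). The transducers did not pass: Smad2 stood at -0.01 ± 0.06, Smad4 at 0.01 ± 0.05 and Foxh1, the DNA-binding partner of the SMADs, at -0.05 ± 0.05. Of 19 BMP pathway genes tested, Bmpr2, a BMP receptor (435, 444 and 448 against 343, 331 and 371), and Chrd, the antagonist chordin (68.8, 52.3 and 45.3 against 21.8, 21.3 and 42.9), fell and none rose. Both calls were lost in some fits that left out 1 library, where the list had 0 to 3 falls.

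Genes of naive pluripotency rose in part, with a higher list median in IAA 1 than in IAA 3. Of 14 members tested, 7 rose (Klf2, Tbx3, Esrrb, Zfp42, Fbxo15, Dppa3 and Fgf4) and Nanog fell, with a list median of 0.73. Relative to the Dox mean the median member stood at 1.12, 0.69 and 0.38 in IAA 1, 2 and 3, and 10 of 14 were highest in IAA 1. The share of all tested genes that were highest in IAA 1 was not counted. Klf2, a Krüppel-like factor of the naive network, had 155, 239 and 205 in Dox 1 to 3 and 412, 404 and 329 in IAA 1 to 3 (0.94 ± 0.13, adjusted p = 0.000666, limma). Esrrb, an orphan nuclear receptor, had 129, 127 and 154 against 341, 230.5 and 158 (0.76 ± 0.20, adjusted p = 0.0221). Zfp42 (Rex1) had 253, 249 and 273 against 594, 403 and 309 (0.70 ± 0.16, adjusted p = 0.0128), and Tbx3, a T-box factor, had 98.1, 84.7 and 85.6 against 132, 175 and 170.3 (0.81 ± 0.14, adjusted p = 0.00181). Esrrb and Zfp42 went from high in IAA 1 to close to Dox in IAA 3, whereas Klf2 and Tbx3 were above the Dox range in all 3. Without Dox 1 the list had 2 rises, without Dox 2 it had 3 and without IAA 2 it had 4.

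The core pluripotency factors moved in both directions. Nanog had 4909, 4753 and 4702 against 3705, 3632 and 4115 (-0.33 ± 0.05, adjusted p = 0.000792, limma), lower in every IAA library. Pou5f1 (Oct4) had 6302, 5831 and 5631 against 4371, 4943 and 5245 (-0.29 ± 0.06, adjusted p = 0.00649), while Sox2 rose, at 699, 723 and 734 against 1203, 1141 and 918 (0.59 ± 0.08, adjusted p = 0.000615). Of 12 core pluripotency genes 4 fell (Pou5f1, Nanog, Tdgf1 and L1td1) and 2 rose (Sox2 and Utf1). L1td1, an RNA-binding protein of pluripotent cells, had 5421, 4904 and 4542 against 2964, 3349.7 and 3887 (-0.55 ± 0.08, adjusted p = 0.000755). Of 15 formative and primed epiblast genes 4 fell (among them Fgf5, Etv4 and Pim2) and none rose. Fgf5, the standard marker of the post-implantation epiblast, had 1252, 1145 and 1123 against 792, 656 and 769 (-0.67 ± 0.07, adjusted p = 0.000107), and Pim2, a serine kinase, had 11966, 11246 and 9588 against 5707, 8034 and 9175 (-0.54 ± 0.12, adjusted p = 0.0111). Otx2 and Pou3f1, factors of the formative state, did not pass (0.18 ± 0.10 and 0.03 ± 0.07). The formative list kept 1 fall without Dox 1 or Dox 2, 2 without IAA 2 and 6 without Dox 3 or IAA 3.

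FGF, ERK and Notch genes moved in both directions. Of 23 FGF and ERK genes, 5 rose and 8 fell. The receptor Fgfr2 had 54.8, 52.3 and 66.7 against 148, 144 and 127 (1.26 ± 0.14, adjusted p = 0.000142, limma) and the ERK phosphatase Dusp4 had 616, 639 and 711 against 1522, 1188 and 1027 (0.91 ± 0.11, adjusted p = 0.000171), each with no overlap. The ETS factors downstream of FGF fell: Etv1 at -0.63 ± 0.09, Etv4 at -0.70 ± 0.17 and Etv5 at -0.28 ± 0.05, as did the phosphatase Dusp6 at -0.32 ± 0.06. Spry1 rose (0.58 ± 0.09) while Spry2, a related ERK inhibitor, fell (-0.40 ± 0.12). Of 19 Notch pathway genes 4 rose and 2 fell. The ligand Dll1 had 59.8, 66.04 and 54.1 against 158, 186 and 165 (1.48 ± 0.13, adjusted p = 3.11e-05), the largest change of the list, and the receptor Notch3 had 3141, 3126 and 3139.8 against 2106, 2266 and 2195 (-0.52 ± 0.04, adjusted p = 2.36e-05). In both genes the IAA libraries were close to each other. There was 1 Notch rise without Dox 1, Dox 2 or IAA 2.

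**Figure D3:**
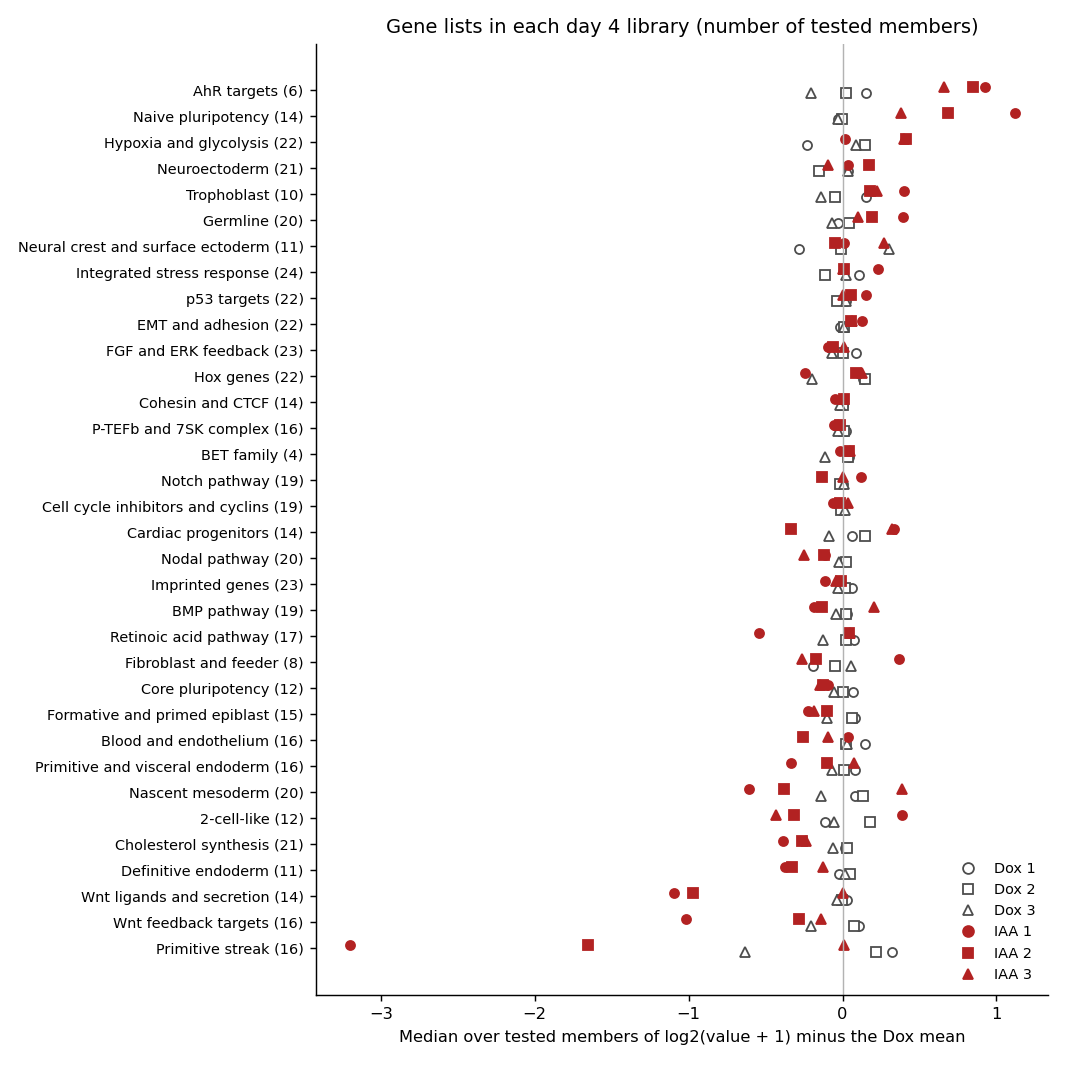
For each list, the median over its tested members of log2(value + 1) minus the mean of the Dox libraries, in each day 4 library (open grey symbols for Dox, filled red for IAA), ordered by the list's median log2 fold change. The streak list spans -3.20 to 0.01 over the IAA libraries and the naive list 0.38 to 1.12, while the AhR target and cholesterol lists hold the 3 IAA libraries close together.

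The 10 largest rises under the naming rule were Lmx1b, Dll1, Fos, Igfbp5, Gadd45g, Myl3, Rnf43, Bhlhe41, Derl3 and AU018091, with log2 fold changes from 1.31 to 1.64. Lmx1b, a LIM-homeodomain factor, had 17.8, 11.2 and 28.96 in Dox 1 to 3 and 74.9, 53.7 and 49.6 in IAA 1 to 3 (1.64 ± 0.30, adjusted p = 0.00312, limma). Gadd45g, a growth arrest and differentiation gene, had 53.5, 54.8 and 56.7 against 126, 161 and 160.1 (1.41 ± 0.14, adjusted p = 6.04e-05), and Derl3, a component of endoplasmic reticulum-associated degradation, had 106, 112 and 121 against 221, 319 and 330.4 (1.33 ± 0.14, adjusted p = 6.95e-05). Igfbp5, an IGF-binding protein, had 21.6, 44.9 and 49.1 against 112, 104 and 83.5 and Myl3, a cardiac myosin light chain, 17.8, 26.2 and 42.8 against 76.8, 71.6 and 71.1. Every one of the 10 passed the test without any single library and under each other setting tried. The 10 largest falls were Foxa2, Ism2, Fgf8, Fat3, Wnt3, Nrcam, Grm6, Sorbs2, Wnt8a and Rtl8c, from -3.07 to -1.94. Of these, Fat3, Nrcam, Grm6 and Sorbs2 passed in every such fit. The other 6 did not pass without Dox 1, Dox 2 or IAA 2, nor by DESeq2. Rtl8c did not pass without IAA 1 either. Grm6, a metabotropic glutamate receptor, had 537, 492 and 392 against 53.1, 131 and 197 (-2.07 ± 0.31, adjusted p = 0.00086), and Rtl8c, a retrotransposon-derived Gag-like gene, had 144, 132 and 85.6 against 14.2, 24.6 and 74.4 (-1.94 ± 0.40, adjusted p = 0.00692). Keratin 18 (Krt18), an intermediate filament of simple epithelia, had 1229, 1467 and 1846 against 3351, 2636 and 2658 (0.94 ± 0.11, adjusted p = 0.000233), and Cldn4, a tight junction protein, had 605, 655 and 835 against 1347, 1462 and 1201 (0.94 ± 0.10, adjusted p = 8.03e-05). Both epithelial genes were higher in every IAA library. Of 22 adhesion and epithelial-to-mesenchymal genes 6 rose (Cdh1, Epcam, Fn1, Cldn4, Cldn6 and Sparc) and 2 fell (Vim and Zeb2). The 2 falls were 0 without Dox 1, Dox 2, IAA 1 or IAA 2. Cdh1, the epithelial cadherin, changed by 0.13 ± 0.04, and Zeb2, a repressor of Cdh1, had 214, 168 and 165 against 73.9, 83.9 and 149 (-0.89 ± 0.20, adjusted p = 0.0119).

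The share of genes that fell was larger among long genes than among short ones, in a count whose difference was not tested. Of the 449 protein-coding genes tested whose genomic span exceeds 300 kb, 129 (28.7%) fell and 5 (1.11%) rose, and their median log2 fold change was -0.43. Of the 1679 genes spanning 100 to 300 kb, 13.6% fell and 4.59% rose. Below 100 kb the shares were close to each other: 5.63% fell and 4.90% rose up to 10 kb, 5.97% and 6.55% from 10 to 30 kb, and 6.31% and 7.44% from 30 to 100 kb. Long genes were less expressed, with a median level of 34.2 normalised counts over 300 kb against 106 up to 10 kb. Among genes with a mean of at least 50, 82 of 197 over 300 kb (41.6%) fell. The median gene over 300 kb was lower by a like amount in each IAA library: it stood at -0.40, -0.32 and -0.48 relative to the Dox mean in IAA 1, 2 and 3. Without 1 library the share that fell over 300 kb was 13.4% to 23.6%, lowest without Dox 1, 15.6% without Dox 2 and 18.5% without IAA 2. It was 16.9% by DESeq2.

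Fat3, an atypical cadherin (ENSMUSG00000074505, chr9:15910189-16501285, minus strand), had 172, 162 and 117 in Dox 1 to 3 and 26.5, 35.8 and 37.2 in IAA 1 to 3 (-2.14 ± 0.19, adjusted p = 2.77e-05, limma). Sorbs2, an actin adaptor protein, had 75.1, 69.8 and 66.7 against 17.1, 12.3 and 20.3 (-2.05 ± 0.23, adjusted p = 0.000133), and Nrcam, a neuronal cell adhesion molecule, had 411, 345 and 311 against 40.8, 97.3 and 145 (-2.07 ± 0.30, adjusted p = 0.00074). Fat3 and Sorbs2 were down to a like level in each IAA library, and Nrcam was lowest in IAA 1. Fat3 and Sorbs2 span over 300 kb, and Nrcam spans 273080 bases. A few other genes over 300 kb, picked after their values were seen, show the range. Gpc6, a glypican, had 107, 77.3 and 90.6 against 22.7, 33.6 and 25.9 (-1.71 ± 0.20, adjusted p = 0.00018), Cdk14, a cyclin-dependent kinase, had 234, 263 and 194 against 65.4, 107 and 91.4 (-1.40 ± 0.16, adjusted p = 0.00018), and Slit3, a secreted guidance ligand, had 564, 556 and 502 against 203, 323 and 342 (-0.94 ± 0.14, adjusted p = 0.00109). Of the 15351 protein-coding genes tested, 1679 spanned 100 to 300 kb and 449 over 300 kb. Of the 151 that fell at least 2-fold, 86 spanned over 100 kb. Among those 86, 35 varied more than 2-fold over the IAA libraries, against 39 of the 65 up to 100 kb.

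**Figure D4:**
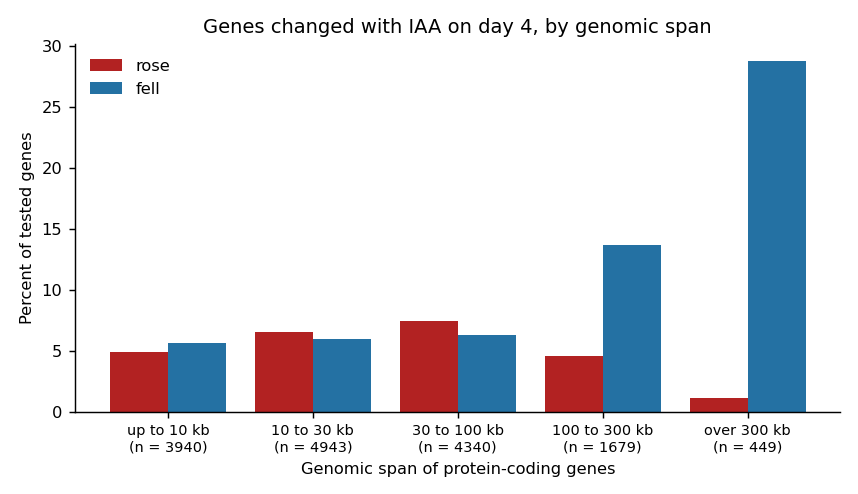
Share of tested protein-coding genes that rose (red) or fell (blue) with IAA on day 4, by genomic span in GENCODE M21, with the number of tested genes (n) under each pair of bars. The share that fell goes from 5.63% up to 10 kb to 28.7% over 300 kb, where 1.11% rose.

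In the P-TEFb and 7SK list, 2 of 16 members rose (Hexim1 and Ccnt2) and 2 fell (Larp7 and Cdk9). The list median was -0.004, against -0.007 over all genes, of which 4.69% rose and 5.57% fell. Hexim1, the protein that inhibits P-TEFb within the 7SK particle, had 377, 349 and 316 in Dox 1 to 3 and 527, 520.2 and 470.3 in IAA 1 to 3 (0.54 ± 0.08, adjusted p = 0.000939, limma). Larp7, which binds and stabilises 7SK RNA, had 4904, 4117 and 4209.9 against 2497, 2508 and 2823 (-0.75 ± 0.06, adjusted p = 2.36e-05). Neither gene's groups overlapped, and both calls held without any single library. Ccnt2, a cyclin partner of CDK9, rose by 0.21 ± 0.04 and Cdk9, the kinase itself, changed by -0.23 ± 0.06. The Cdk9 call was lost by DESeq2 and in 5 of the 6 fits without 1 library, where Larp7 was the 1 gene that fell. Of 14 cohesin and CTCF genes, Stag1, Pds5a and Pds5b fell and Esco2 rose, with a list median of 0.005. Esco2, an acetyltransferase that establishes cohesion, had 1015, 895 and 940.4 against 1230.1, 1256 and 1365 (0.43 ± 0.06, adjusted p = 0.00067), and Stag1, a cohesin subunit, had 1546, 1458 and 1423 against 1206, 1265 and 1209 (-0.27 ± 0.05, adjusted p = 0.00514). The 3 falls of that list became 1 or 2 when a library was left out.

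Targets of the aryl hydrocarbon receptor (AhR), a transcription factor that binds planar aromatic compounds, some indoles among them, and induces detoxifying enzymes, rose in all 3 IAA libraries. Of the 6 tested, 4 rose: Tiparp, Cyp1b1, Cyp1a1 and Nqo1, with a list median of 0.81. All 4 passed without any single library. Tiparp, an ADP-ribosyltransferase that represses the receptor (ENSMUSG00000034640, chr3:65528410-65555518, plus strand), had 583, 597 and 558 in Dox 1 to 3 and 1129.6, 1222 and 1094 in IAA 1 to 3 (0.99 ± 0.06, adjusted p = 2.06e-06, limma). Its groups lay about 2-fold apart with little spread in either. Cyp1b1 had 10.2, 7.48 and 3.78 against 37.9, 32.4 and 33.8 (2.21 ± 0.34, adjusted p = 0.00113) and Cyp1a1 had 6.37, 8.72 and 5.04 against 22.7, 24.6 and 34.96 (1.89 ± 0.33, adjusted p = 0.0026), both of them cytochrome P450 enzymes at low counts, for which DESeq2 gave no adjusted p. Nqo1, a quinone reductase, had 154, 143 and 132 against 266, 219 and 188 (0.63 ± 0.12, adjusted p = 0.00496). Ahr itself stood at -0.08 ± 0.13 and Ahrr, its repressor, at -0.21 ± 0.23 (adjusted p of 0.762 and 0.643). Txnip and Arrdc4, chosen after their values were seen, are arrestin-domain genes known as targets of the glucose-sensing factor MondoA and its relative ChREBP. Txnip had 1393, 1930.0 and 2561 in Dox 1 to 3 and 5175, 4626 and 4191 in IAA 1 to 3 (1.29 ± 0.15, adjusted p = 0.000134) and Arrdc4 had 348, 349 and 494 against 855, 798 and 733 (1.02 ± 0.11, adjusted p = 0.000108). Both were above the Dox range in every IAA library and highest in IAA 1.

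The promoters of these genes are shown because the pairs moved together and the factors have known recognition letters. Each line gives the 250 bases before the RefSeq start (GRCm38.p6), 5' to 3' on the gene's own strand, with matches in capitals: for the first 2, GCGTG on either strand, the core of the AhR site; for the last 2, a motif of a carbohydrate response element, CACGNG, on either strand. The 2 motifs overlap where the N is a C. Each motif is marked in its own pair only. CACGNG also occurs in the Tiparp window, and GCGTG, on either strand, in those of Txnip and Arrdc4. The motifs therefore do not separate the pairs. The positions are chr3:65528197-65528446, plus strand, for Tiparp, chr17:79715062-79715311, minus strand, for Cyp1b1, chr3:96557707-96557956, plus strand, for Txnip and chr7:68749239-68749488, minus strand, for Arrdc4.
Tiparp: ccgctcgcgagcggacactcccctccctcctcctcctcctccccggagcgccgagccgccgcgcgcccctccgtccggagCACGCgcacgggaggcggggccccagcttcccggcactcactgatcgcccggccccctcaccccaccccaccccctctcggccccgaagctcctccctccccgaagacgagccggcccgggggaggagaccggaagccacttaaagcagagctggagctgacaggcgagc
Cyp1b1: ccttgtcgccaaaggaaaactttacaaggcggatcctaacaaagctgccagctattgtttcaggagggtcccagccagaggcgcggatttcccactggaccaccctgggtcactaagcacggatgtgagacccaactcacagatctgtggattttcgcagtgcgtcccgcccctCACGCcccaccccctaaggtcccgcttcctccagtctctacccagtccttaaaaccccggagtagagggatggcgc
Txnip: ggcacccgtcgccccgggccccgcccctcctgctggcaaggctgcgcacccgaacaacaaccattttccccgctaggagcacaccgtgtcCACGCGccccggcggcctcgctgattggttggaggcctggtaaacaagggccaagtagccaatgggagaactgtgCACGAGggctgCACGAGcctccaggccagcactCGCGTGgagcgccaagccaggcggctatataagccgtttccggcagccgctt
Arrdc4: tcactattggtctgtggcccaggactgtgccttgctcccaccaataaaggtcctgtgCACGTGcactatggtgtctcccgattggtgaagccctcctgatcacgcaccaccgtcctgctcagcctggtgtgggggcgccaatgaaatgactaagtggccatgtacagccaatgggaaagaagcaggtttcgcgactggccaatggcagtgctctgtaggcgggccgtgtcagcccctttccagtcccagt
Tiparp has 1 GCGTG match, starting at position -170 from the start, and Cyp1b1 has 1 at -76; 28.2% of 32851 mouse promoter windows of this length hold at least 1. Txnip has 4 CACGNG matches and Arrdc4 has 1, at -193; 23.5% of the windows hold at least 1 and 5.40% at least 2. A match describes the letters in these windows and is not evidence of binding.

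Of the genes of cholesterol synthesis more fell than rose, each by less than 2-fold. Of 21 cholesterol genes tested, 12 fell and Insig1 rose, with a list median of -0.29. The median member stood at -0.39, -0.26 and -0.24 relative to the Dox mean in IAA 1, 2 and 3. Hmgcs1, the synthase that commits acetyl groups to the pathway, had 3521, 3414 and 3078 in Dox 1 to 3 and 2171, 2488 and 2596 in IAA 1 to 3 (-0.47 ± 0.06, adjusted p = 0.000596, limma). Nsdhl, a sterol dehydrogenase, had 371, 378 and 336 against 246, 236 and 259 (-0.54 ± 0.08, adjusted p = 0.00104), and Lss, lanosterol synthase, had 1281, 1321 and 1254 against 983, 1032 and 1043 (-0.33 ± 0.05, adjusted p = 0.00127). No IAA library reached the Dox range for Hmgcs1, Nsdhl or Lss. The falls numbered 6 without Dox 1, IAA 1 or IAA 2 and 5 without Dox 2. Of 22 hypoxia and glycolysis genes, 8 rose by less than 2-fold and Eno1, an enolase, fell (-0.21 ± 0.06). The median member stood at 0.01, 0.41 and 0.40 in IAA 1, 2 and 3 and at -0.23, 0.15 and 0.09 in Dox 1, 2 and 3, so that IAA 1 was within the Dox range. Vegfa, the vascular growth factor, had 565, 547 and 672 against 835, 971 and 999 (0.65 ± 0.08, adjusted p = 0.000363). P4ha1, a collagen prolyl hydroxylase, had 512, 735 and 743 against 942, 1460.0 and 1419 (0.93 ± 0.15, adjusted p = 0.00139), and Aldoa, a glycolytic aldolase, had 14382, 18635 and 18233 against 20153, 26704 and 24800.0 (0.48 ± 0.09, adjusted p = 0.00451). For P4ha1 and Aldoa, Dox 1 and IAA 1 were the lowest of their groups. Of 22 genes in the list 18 were lowest in IAA 1, and the share of all tested genes lowest in IAA 1 was not counted. There were 2 rises without IAA 2 and 3 without Dox 1, and 5 by DESeq2. The Eno1 call was lost without Dox 1, Dox 2, Dox 3 or IAA 1.

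Beside the list counts that follow, 4.69% of all tested genes rose and 5.57% fell. Of 24 integrated stress response genes, 4 rose (Ddit3, Atf5, Chac1 and Trib3) and none fell. Without Dox 2 there was 1 rise. Ddit3 (CHOP) had 138, 139.6 and 152 against 228, 312 and 279 (0.92 ± 0.12, adjusted p = 0.000312, limma), and Atf5 had 444, 326 and 349 against 625, 519 and 479 (0.54 ± 0.11, adjusted p = 0.0072). Atf4, the factor upstream of them, had 2239, 2052 and 2061 against 2282, 2402 and 2316 and did not pass (adjusted p = 0.0838). Of 22 p53 targets 2 rose and 1 fell, by at most 0.32 in either direction on the log2 scale; the fall was lost whichever library was left out and the rises without Dox 1. Of 19 cell cycle genes 3 rose and 3 fell. The rises were 0 without Dox 2 or IAA 2, and the falls were 1 without Dox 1, Dox 2, IAA 1 or IAA 2. Ccne1, a G1 cyclin, had 984, 876 and 847 against 659.6, 671 and 703 (-0.41 ± 0.07, adjusted p = 0.00147), and Cdkn1b (p27) had 1412, 1376 and 1486 against 1619, 1749 and 1750.3 (0.26 ± 0.05, adjusted p = 0.00602). Of 23 imprinted genes 3 rose (H19, Kcnq1ot1 and Mest) and 4 fell (Peg3, Snrpn, Zim1 and Usp29); 1 fell without Dox 1, IAA 1 or IAA 2. H19, a long non-coding RNA expressed from the maternal copy, had 389.7, 491 and 461 against 687, 716 and 787 (0.71 ± 0.09, adjusted p = 0.000216). Usp29, expressed from the paternal copy, had 101, 97.2 and 101 against 27.5, 38.04 and 63.2 (-1.28 ± 0.23, adjusted p = 0.00321). Of 20 germline genes 3 rose (1 without Dox 1, Dox 2, IAA 1 or IAA 2) and Tex15, needed for meiotic recombination, fell (458, 299 and 327 against 136, 183 and 233, -0.98 ± 0.17, adjusted p = 0.00255). None of 12 genes of the 2-cell-like state passed the test. Of the markers of feeder fibroblasts, Lum was at 0 in every library, Postn and Mgp had at most 1.26 counts and Dcn at most 9.97. Of the 8 tested, Col1a2 and Fbn1 fell (-1.07 ± 0.33 and -1.05 ± 0.13), and the Col1a2 call was lost whichever library was left out, IAA 1 excepted. The summed level of that list was 521 to 720.1 in Dox and 551 to 787 in IAA, and its part in any result was not tested.

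The IAA effect on day 4 was set against that on day 3 and on day 2, each with its own Dox libraries, in a fit over all 24 libraries. It differed from day 3 for 1086 of 22019 genes (4.93%), of which 596 (2.71%) were above and 490 (2.23%) below the day 3 effect. It differed from day 2 for 3667 genes (16.7%), 1780 (8.08%) above and 1887 (8.57%) below. The number for day 3 was 552 without Dox 1 of day 4 and 604 without Dox 1 of day 3. Levels below are means ± SD of 3 libraries, from Dox to IAA.

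For several genes the group means stood in opposite order on day 3 and day 4. Gadd45g went from 159.7 ± 5.58 to 101 ± 22.4 on day 3 and from 54.99 ± 1.59 to 149 ± 19.97 on day 4, a difference in log2 fold change of 2.09 ± 0.36, adjusted p = 0.000448 (limma). Fos, an immediate early factor, went from 50.4 ± 16.6 to 34.1 ± 17.4 on day 3 and from 131 ± 35.5 to 375 ± 166 on day 4 (2.06 ± 0.45, adjusted p = 0.0064). AU018091 went from 141 ± 20.6 to 82.7 ± 3.47 and from 33.1 ± 11.8 to 80.6 ± 16.1 (2.06 ± 0.22, adjusted p = 1.12e-06). In the other direction, Tex15 went from 211 ± 16.3 to 247 ± 25.4 on day 3 and from 362 ± 85.04 to 184 ± 48.97 on day 4 (-1.21 ± 0.19, adjusted p = 0.000171). Eomes was low on day 3 in both groups (50.05 ± 3.30 to 55.6 ± 3.51) and differed by -1.89 ± 0.49, adjusted p = 0.02. Grm6 stood at 149 ± 7.59 to 122 ± 23.6 on day 3, and its effect was lower on day 4 (-1.77 ± 0.35, adjusted p = 0.00283). T, at 11.1 ± 4.17 to 10.4 ± 3.86 on day 3, had a difference of -2.29 ± 0.88, adjusted p = 0.137, which did not pass the test. Mixl1 and Foxa2 were likewise low on day 3, at 11.6 ± 5.60 to 5.41 ± 2.52 and 2.21 ± 1.08 to 2.36 ± 2.49.

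Genes whose day 4 call held without any single library had varied effects on the earlier days. Lefty2 had log2 fold changes of -1.05 ± 0.09, -1.16 ± 0.07 and -1.35 ± 0.12 on days 2, 3 and 4, and its day 4 effect did not pass the test of a difference from either (adjusted p of 0.484 and 0.129). Lefty1 had -1.51 ± 0.06 on day 3, and its day 4 fall was smaller (0.66 ± 0.12, adjusted p = 0.00135, limma). Trh stood at 0.11 ± 0.07 on day 3 and the difference from day 4 passed (-1.10 ± 0.16, adjusted p = 5.09e-05). Tiparp had 0.32 ± 0.07, 0.61 ± 0.06 and 0.99 ± 0.06 on days 2, 3 and 4. Its day 4 effect was above that of day 3 by 0.38 ± 0.10, adjusted p = 0.0194 (limma). In the stem cells kept in 2i medium Tiparp fell with IAA (-0.28 ± 0.06, adjusted p = 0.000171, limma). Txnip had 0.39 ± 0.12, 0.38 ± 0.06 and 1.29 ± 0.15, with a day 4 difference from day 3 of 0.91 ± 0.20, adjusted p = 0.0064. Dll1 had -0.55 ± 0.16 on day 2 and 0.22 ± 0.14 on day 3, below its day 4 effect by 1.27 ± 0.28, adjusted p = 0.0064 for day 3. Larp7 had -0.40 ± 0.05 on day 3 and a difference of -0.35 ± 0.08, adjusted p = 0.0124, while Hexim1 had 0.66 ± 0.07 and one of -0.12 ± 0.09, adjusted p = 0.512. Of protein-coding genes over 300 kb, 51.3% fell on day 3 in its own fit, against 28.7% on day 4; the difference between these shares was not tested.

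**Figure D5:**
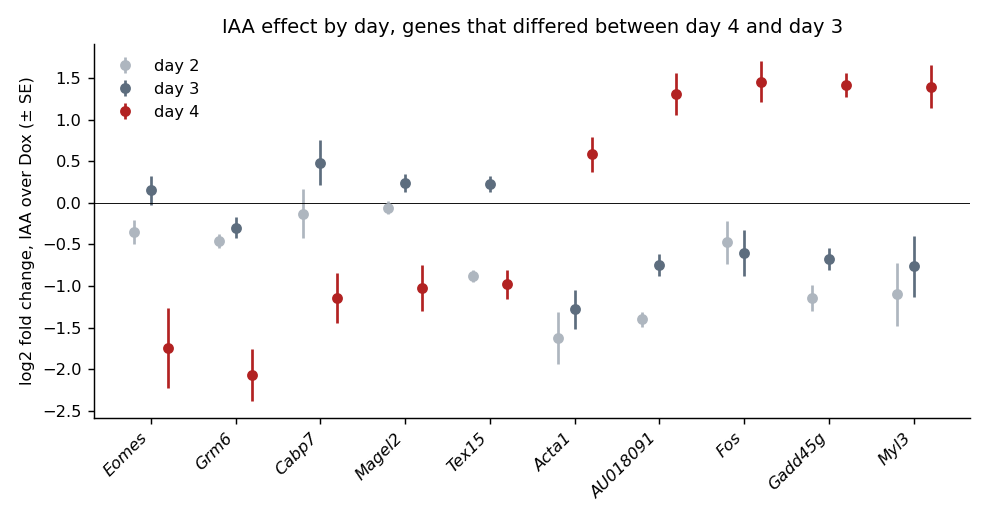
Log2 fold change of IAA over Dox (points, with bars of 1 SE) on days 2, 3 and 4 for the 5 genes furthest below and the 5 furthest above the day 3 effect under the naming rule. Gadd45g, Fos, AU018091, Myl3 and Acta1 lie below 0 on days 2 and 3 and above 0 on day 4.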

How the data were processed

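Per the submitters' processing notes, the tools were STAR 2.5.3a (alignment, mm10), featureCounts 1.5.2 (gene counts) and DESeq2; the DESeq2 version, the strandedness and the annotation are not given in the sources used here, so reads of overlapping genes cannot be told apart. The signal values the authors deposited per library are gene counts divided by 1 size factor per library: multiplying back gave whole reads, to within 1e-06, for 100% of the values above 0. The deposited log2 fold changes and their SE, the deposited score (the Wald statistic) and the deposited p-value columns, raw and adjusted, come from DESeq2, per the file headers, and were used for the comparison of calls only.

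Genes with a mean of at least 1 over the 6 day 4 libraries were fitted with limma 3.58.1 (R 4.3.3, trend) on log2(value + 1), with Benjamini-Hochberg adjustment over all tested genes at 0.05. A fold change on this scale understates that of low genes. Differences between days were contrasts in 1 fit of all 24 libraries. edgeR 4.0.16 and DESeq2 1.42.0 were run on the recovered reads as alternatives, with TMM scaling, other constants (0.5 and 4) and filters (none, and a mean of at least 10), array weights, thinning, a replicate block and each library left out. The limma code was tested on simulated data. The edgeR and DESeq2 fits were not. Positions and spans are from GENCODE M21, in which 35652 of 35742 genes were found; 14339 genes have no symbol.

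The rule for naming genes took the 10 largest changes each way (adjusted p below 0.05, groups not overlapping, the higher group's mean 50 or more); the BET family; the 3 or fewer members of each list whose adjusted p was smallest; a set of stage markers; the 8 widest ranges over the IAA libraries; and the 5 largest differences each way between days, with a mean of at least 50 in the highest group. It skipped predicted genes, clones, pseudogenes and genes with no symbol. Other list members named were chosen after their values were seen. The 34 gene lists (564 genes, 511 tested, of which 64 rose and 72 fell) and the genes of interest were chosen with earlier results of these data known. The counts of list members describe these lists and are not set tests. Over all tested genes 4.69% rose and 5.57% fell. Among protein-coding genes with a mean of at least 50 and a span up to 100 kb, the shares were higher. In each span class 7.87% to 9.73% of these rose and 7.60% to 8.55% fell. Two-sided tests were used, and ± after a log2 value is its SE.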

Additional observations from a re-analysis of the deposited data

Results flagged for a closer look

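The IAA effect on day 4 differed from that on day 3 for 1086 genes and from that on day 2 for 3667 genes, by the test of the difference itself (limma, all 24 libraries, adjusted p below 0.05). Against day 3 the largest differences under the naming rule, in log2 units, were below 0 for Eomes (-1.89 ± 0.49, adjusted p = 0.02), Grm6 (-1.77 ± 0.35, adjusted p = 0.00283), Cabp7 (-1.63 ± 0.43, adjusted p = 0.0233), Magel2 (-1.26 ± 0.34, adjusted p = 0.0273) and Tex15 (-1.21 ± 0.19, adjusted p = 0.000171). Cabp7, a calcium-binding protein, went from 22.1 ± 7.55 to 30.03 ± 1.66 on day 3 and from 97.1 ± 26.6 to 46.1 ± 22.001 on day 4. Magel2, a paternally expressed imprinted gene, went from 226 ± 25.4 to 269 ± 43.2 and from 337 ± 89.1 to 177 ± 90.3. They were above 0 for Myl3 (2.16 ± 0.59, adjusted p = 0.0273), Gadd45g (2.09 ± 0.36, adjusted p = 0.000448), Fos (2.06 ± 0.45, adjusted p = 0.0064), AU018091 (2.06 ± 0.22, adjusted p = 1.12e-06) and Acta1 (1.86 ± 0.53, adjusted p = 0.0341). Acta1, skeletal muscle actin, went from 47.9 ± 7.56 to 18.97 ± 1.43 on day 3 and from 84.8 ± 23.7 to 128 ± 37.5 on day 4.

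Against day 2 the differences were below 0 for Foxa2 (-3.15 ± 1.00, adjusted p = 0.0271), Gpm6b (-1.84 ± 0.45, adjusted p = 0.00396), Myc (-1.71 ± 0.28, adjusted p = 5.18e-05), Tcf15 (-1.64 ± 0.17, adjusted p = 2.15e-08) and Col11a1 (-1.61 ± 0.40, adjusted p = 0.00464). Myc, a growth-promoting transcription factor, went from 310.2 ± 79.8 to 567 ± 56.4 on day 2 and from 121 ± 22.4 to 70.4 ± 24.3 on day 4. Tcf15, a basic helix-loop-helix factor, went from 181 ± 26.7 to 632 ± 16.4 on day 2 and stood at 78.4 ± 16.8 to 86.5 ± 4.70 on day 4. They were above 0 for Vwa3b (3.54 ± 0.59, adjusted p = 5.53e-05), Tdpoz8 (2.82 ± 0.73, adjusted p = 0.00605), Pvt1 (2.79 ± 0.61, adjusted p = 0.00134), Dppa3 (2.73 ± 0.28, adjusted p = 2.18e-08) and AU018091 (2.71 ± 0.22, adjusted p = 2.04e-10). Vwa3b and Tdpoz8 had under 4 mean counts in both groups on day 4, so their differences rest on day 2. Dppa3, a gene of naive and germ cells, went from 68.8 ± 5.30 to 19.7 ± 3.19 on day 2 and from 41.5 ± 9.71 to 84.3 ± 32.2 on day 4.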

How the results depend on the processing

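The count of genes changed on day 4 (2173) was 3487 when all 24 libraries shared 1 spread. Under the other settings it was 1365 to 2754, with 1365 for a replicate block and 1470 by DESeq2. DESeq2 gave no adjusted p for 112 of the main calls. Without 1 library the count of changed genes was 800 to 1964, and list members that changed (136) were 71 to 148. The difference from day 3 (1086) was 721 with no filter on low values and 552 to 1359 without 1 library; that from day 2 (3667) was 2921 to 4179 over all settings. Of 105 named genes that changed, 67 passed in every fit in which a value was given. DESeq2 lost the call of 14 and leaving out 1 library lost 7 to 33. No named value changed sign with a call. The cause of these shifts was not tested. The replicate numbers were not used as pairs in the main fit. The correlations of deviations for the same number in Dox and IAA were -0.04, 0.00 and -0.08. Not every sample correlated best with its own number. Deviations from a mean of 3 libraries offset each other, so this check cannot show whether the numbers pair the samples. With a replicate block 1365 genes changed on day 4, 811 differed from day 3 and 3454 from day 2. At 7941180 to 10598075 reads, genes under about 10 counts vary widely.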

Other observations

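Bhlhe41 (Dec2), a repressor in the circadian feedback loop and 1 of the 10 largest rises, had 168, 184 and 267 in Dox 1 to 3 and 416, 604 and 559 in IAA 1 to 3 (1.36 ± 0.15, adjusted p = 0.000139, limma). Other genes of that loop were chosen after their values were seen, with no count over the rest of the loop. Per1 had 559, 629 and 629 against 802, 1406 and 1419.9 (0.95 ± 0.15, adjusted p = 0.0015), Nr1d1 (REV-ERBα) had 92.96, 105 and 117 against 154, 289 and 266 (1.12 ± 0.19, adjusted p = 0.00172) and Ciart had 87.9, 88.5 and 89.4 against 124, 149 and 176 (0.74 ± 0.14, adjusted p = 0.00368). Bhlhe40 rose by 0.65 ± 0.15 and Dbp by 0.49 ± 0.11, both with calls lost without some libraries. In Per1 and Nr1d1, IAA 1 was the lowest of the IAA libraries and above every Dox library.

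Among immediate early factors of the AP-1 family, Fos had 90.4, 145 and 157 against 228, 341 and 555 (1.46 ± 0.25, adjusted p = 0.00194, limma), highest in IAA 3. Jun, chosen after its values were seen, had 253, 307 and 389 against 462, 585 and 626 (0.83 ± 0.13, adjusted p = 0.00145). Fosb had 49.7, 95.9 and 125 against 91.9, 149.9 and 267 and did not pass (adjusted p = 0.112). Egr1, an immediate early factor outside that family, had 712, 728 and 738 against 522, 811 and 969.9 and did not pass either (0.03 ± 0.15). In each of these 4 genes IAA 1 was the lowest and IAA 3 the highest IAA library, and Dox 1 was the lowest Dox library.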
